A study of Mus musculus with 8 samples.

Results

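Tumors grown from LLC cells were compared with tumors grown from B16 cells, across all genes, in 4 LLC and 4 B16 libraries, which together were the 8 libraries of the series. B16 is a mouse melanoma line, and LLC, the Lewis lung carcinoma, is a mouse lung carcinoma line. The cells, with their own *Ccrl2* gene intact, were grafted under the skin of the back of syngeneic C57BL/6 mice (C57BL/6J in the methods). The hosts were WT mice or *Ccrl2* KO mice, which lack a receptor that binds chemerin, and were 6 to 12 weeks old unless otherwise stated in the methods. Each combination of tumor and host had 2 libraries, each made from a pool of 3 tumors. The genotype of the host entered the comparison as a covariate, so that a difference between tumors was taken within hosts of the same genotype. The labels give day 5 after the graft for every pool, but legends of the published plots give day 3 for B16 and day 5 for LLC, and the tumor line and the day of sampling therefore cannot be told apart. Each tumor type was 1 cell line, so that what separated the libraries separated these lines and not carcinoma from melanoma in general. Grafted cells and host cells were both of mouse origin, and the libraries did not separate their transcripts. The replicates were pools, and the p-values measure the spread between pools. In the comparison over both hosts, that spread also takes in any difference of the tumor contrast between WT and KO hosts.

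Melanocytes arise from the neural crest. SOX10 and PAX3 turn on *Mitf*, the master regulator of the lineage, and MITF in turn binds the promoters of the genes that make melanin and build the melanosome, the organelle in which the pigment is stored. Carcinoma cells come from epithelia, which are marked by keratins that pair as type I and type II chains (KRT18 with KRT8 in simple epithelia) and by the adhesion molecule E-cadherin. Epithelial tumor cells can lose these marks and take on mesenchymal ones under transcription factors of the SNAI, ZEB and TWIST families. A tumor sample also holds fibroblasts, blood vessels and leukocytes of the host.

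Values are in RPM, the reads of a gene per 1 M reads on genes (M, 10 to the power of 6), obtained from counts that had been scaled to a common total of 20 M and rounded. The values of a gene are given in the order WT 1, WT 2, KO 1 and KO 2, the pools being named by the genotype of the host. The last digits pointed to 17.6 to 30.86 M reads on genes per library, at which 3 reads were worth 0.0973 to 0.1705 RPM. The test took the 14706 of 47729 genes that reached 1 RPM in 2 or more libraries, and a gene was called at an adjusted p under 0.05. Log2 fold changes of LLC over B16 are differences of log2(RPM + 0.5), a scale that understates the change of low genes. RPM is not divided by gene length, so levels are compared between libraries and not between genes. B16 WT 1 held skeletal muscle transcripts, with a sum of 845.9 RPM over the muscle list against 3.7 to 6.4 RPM in the other 7 libraries. LLC KO 1 was low in transcripts of endothelial and mural cells. Y-linked *Ddx3y* was at 31 and 34.9 RPM in the LLC KO libraries and was listed at 0 in the other 6, while the X-linked *Xist* was present in all 8. *Ccrl2*, which the grafted cells kept, did not check the label of the host, with 9.4, 5.25, 11.45 and 5.15 RPM in the LLC pools and 4.25, 3.8, 3.55 and 3.1 RPM in the B16 pools.

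The tumor lines separated the libraries over most of the transcriptome. Of the tested genes, 5393 (36.7%) were higher and 5016 (34.1%) were lower in LLC than in B16 tumors. The 4 LLC libraries all lay above the 4 B16 libraries for 4739 genes (32.2%) and all below them for 4443 (30.2%). A difference of at least 4-fold was found for 927 genes higher in LLC (6.3%) and for 675 lower in LLC (4.59%). Many calls were small, as 5855 of the called genes differed by less than 2-fold. The far end leaned to B16: 108 genes were lower in LLC by at least 5 on the log2 scale, whereas 38 were higher by as much. Among tested genes, 47 were listed at 0 in every LLC library and 34 in every B16 library. The median over all tested genes was 0.026, so that the fold changes below are close to changes relative to the typical gene.

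The pigment cell program had the largest median difference of the 45 gene lists. All 14 tested genes of the pigment and melanosome list were at least 4-fold lower in LLC, against 4.59% of all tested genes, with a median log2 fold change of −8.44. Their summed level ranged from 20832 to 25522 RPM in the B16 libraries and from 64.5 to 118 RPM in the LLC libraries. The label of the B16 tumors was met by its markers. In bulk tumors, fewer cells of a type and less RNA per cell cannot be told apart.

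Of the 15 genes with the largest differences toward B16, 9 had a promoter in the RefSeq table for GRCm38.p6 (250 bases before to 50 after the start), and 6 of these 9 genes held the core of the M-box, TCATGTG on either strand, a motif known to be bound by MITF. The M-box stood in 60.0% of the promoters of these genes, in 45.5% of those of the pigment list, in 5.01% of the promoters of genes at least 4-fold lower in LLC, in 2.65% for genes at least 4-fold higher, in 2.31% for all tested genes and in 3.77% of all 32851 promoters. None of the 9 genes with a promoter among the 15 with the largest differences toward LLC held it. The shorter E-box CATGTG, which lies within the M-box, was in 13.9% of the promoters of genes at least 4-fold lower and in 10.1% of those of genes at least 4-fold higher. It was in 8.99% of the promoters of all tested genes and in 14.2% of all promoters, so that the share of the lower genes did not exceed that of all promoters. A match is a description of the letters and not a measured binding site. The stretches that hold the motif in the pigment genes and in *Tspan10* and *Mc1r* are given 5′ to 3′ on the strand of the gene, 100 bases each, with the M-box in capitals (CACATGA where it lies on the opposite strand), because the genes are of the pigment list or among the 15 with the largest differences toward B16.
Tyr (chr7:87493513-87493612, minus strand): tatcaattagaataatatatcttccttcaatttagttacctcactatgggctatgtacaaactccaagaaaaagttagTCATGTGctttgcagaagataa
Tyrp1 (chr4:80834113-80834212, plus strand): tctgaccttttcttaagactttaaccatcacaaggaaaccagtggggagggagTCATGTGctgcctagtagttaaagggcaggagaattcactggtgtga
Dct (chr14:118052347-118052446, minus strand): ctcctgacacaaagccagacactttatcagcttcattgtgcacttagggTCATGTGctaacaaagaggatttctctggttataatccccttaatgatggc
Trpm1 (chr7:64153635-64153734, plus strand): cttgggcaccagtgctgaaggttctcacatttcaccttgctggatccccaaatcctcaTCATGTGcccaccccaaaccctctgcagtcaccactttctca
Mc1r (chr8:123406982-123407081, plus strand): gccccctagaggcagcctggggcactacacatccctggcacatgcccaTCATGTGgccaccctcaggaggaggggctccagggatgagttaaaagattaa
Slc24a5 (chr2:125068027-125068126, plus strand): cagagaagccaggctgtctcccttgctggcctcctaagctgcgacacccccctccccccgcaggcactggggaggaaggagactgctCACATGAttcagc
Tspan10 (chr11:120442531-120442630, plus strand): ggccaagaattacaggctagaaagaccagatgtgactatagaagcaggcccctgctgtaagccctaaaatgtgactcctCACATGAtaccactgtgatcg
The motif lay at −22 to −16 from the start of *Tyr*, at −47 to −41 from that of *Tyrp1* and at −151 to −145 from that of *Dct*, whose promoter held a second copy on the opposite strand at −232 to −226.

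*Tyr* (chr7:87424771-87493512, minus strand), the rate-limiting enzyme of the pathway, was at 0, 0, 0.05 and 0 RPM in the LLC pools and at 1206.1, 1155.8, 1261.3 and 1303.2 RPM in the B16 pools (log2 fold change −11.23, SE 0.074, limma adjusted p = 5.51e-12). *Tyrp1* was listed at 0 in the LLC pools and at 4023.1, 3710.4, 4821.4 and 5040.1 RPM in the B16 pools (log2 fold change −13.09, SE 0.087, limma adjusted p = 5.51e-12), and it makes an enzyme of the brown to black pigment. *Dct*, an enzyme that acts between the other two, was at 0, 0.05, 0 and 0 RPM in the LLC pools and at 4425.4, 4097.9, 5015.6 and 4899 RPM in the B16 pools (log2 fold change −13.13, SE 0.083, limma adjusted p = 5.51e-12). For these genes, whose reads in LLC were at or next to 0, the size of the fitted difference depends on the 0.5 RPM added before the logarithm, and no fold is given.

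Structural and transport genes of the melanosome had the same direction. *Pmel* was at 0.4, 1.05, 0.3 and 0.4 RPM in the LLC pools and at 4072.9, 3919.4, 4979.6 and 4276.1 RPM in the B16 pools (log2 fold change −12.07, SE 0.19, limma adjusted p = 1.20e-09), and its product forms the fibrils on which melanin is laid down. *Mlana* was at 0, 0.1, 0 and 0.05 RPM in the LLC pools and at 972.55, 933.65, 1060.5 and 911.4 RPM in the B16 pools (log2 fold change −10.82, SE 0.097, limma adjusted p = 4.02e-11). *Slc45a2*, a transporter of the melanosome membrane, was listed at 0 in the LLC pools and at 554.45, 471.25, 645.3 and 585.55 RPM in the B16 pools (log2 fold change −10.13, SE 0.10, limma adjusted p = 8.26e-11). *Oca2*, which helps set the pH of the melanosome, was also listed at 0 in every LLC library and lay between 99.3 and 128.8 RPM in B16. The LLC libraries were not at 0 for every member, as *Slc24a5* was at 0.85, 0.75, 0.95 and 1.15 RPM in them against 166.4, 144.85, 194.85 and 185.7 RPM in B16. In each of these genes the 4 B16 libraries lay close together and far above all 4 LLC libraries.

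The regulators upstream of the pigment genes were also higher in B16, with 6 of 8 tested regulators lower in LLC and 1 higher (median −4.50). *Mitf* was at 22.9, 25.7, 24.95 and 23.75 RPM in the LLC pools and at 453.35, 453.75, 389.2 and 488.05 RPM in the B16 pools (log2 fold change −4.17, SE 0.084, limma adjusted p = 4.56e-09), so that the B16 mean was 18.3 times the LLC mean. *Mitf* (chr6:97807052-98021349, plus strand) was therefore detected in all LLC libraries, while the pigment genes named above did not exceed 1.15 RPM there. Members of the pigment list that are not named here held most of its summed 64.5 to 118 RPM in LLC. *Sox10* was at 1.25, 0.65, 0 and 1 RPM in the LLC pools and at 353.7, 354.35, 420.95 and 411 RPM in the B16 pools (log2 fold change −8.44, SE 0.34, limma adjusted p = 1.75e-07). *Pax3* was at 4.1, 3.35, 4.95 and 3.6 RPM in the LLC pools and at 138.25, 121.15, 126.3 and 122.5 RPM in the B16 pools (log2 fold change −4.84, SE 0.12, limma adjusted p = 1.27e-08). The receptor for melanocortin that drives dark pigment, *Mc1r*, was at 329.6, 345.35, 415.65 and 402.7 RPM in B16 and was read in 1 LLC library, at 0.1 RPM. *Erbb3*, a neuregulin receptor of neural crest cells, was at 4.1, 3.35, 3.15 and 3.9 RPM in the LLC pools and at 129.95, 148.05, 119.05 and 131.45 RPM in the B16 pools (log2 fold change −5.01, SE 0.10, limma adjusted p = 5.15e-09). The endothelin receptor *Ednrb* went the other way, at 62.8, 87.2, 114.85 and 132.05 RPM in LLC and at 37.75, 30.9, 15.05 and 27 RPM in B16 (log2 fold change 1.84, SE 0.31, limma adjusted p = 7.69e-04). *Kit*, the receptor that melanocytes share with mast cells, overlapped between the tumors and was not called (log2 fold change 0.41, SE 0.35, limma adjusted p = 0.32).

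The neural crest and Schwann cell list was split, with 4 of 9 tested members lower and 1 higher in LLC, beside 34.1% and 36.7% of all tested genes. *S100b*, a calcium-binding protein that is a common marker of melanoma, was at 1.15, 0.6, 0.05 and 1.7 RPM in the LLC pools and at 276.2, 294.25, 317.55 and 328.25 RPM in the B16 pools (log2 fold change −7.96, SE 0.38, limma adjusted p = 3.89e-07). *Cdh19*, a cadherin of the neural crest lineage, was at 1.3, 0.55, 0 and 1.2 RPM in the LLC pools and at 99.05, 96.75, 98.6 and 96.5 RPM in the B16 pools (log2 fold change −6.45, SE 0.36, limma adjusted p = 9.64e-07). *Gap43*, a protein of growing axons, was higher in LLC (log2 fold change 2.37, SE 0.26, limma adjusted p = 5.05e-05). Among the 15 largest differences toward B16 were also genes outside the pigment list. *Syt4*, a synaptotagmin of vesicle traffic, was at 0.1, 0.05, 0 and 0 RPM in the LLC pools and at 1123.2, 1122.4, 1088.2 and 974.35 RPM in the B16 pools (log2 fold change −10.97, SE 0.079, limma adjusted p = 7.68e-12). *Ptgds*, a prostaglandin D synthase, was at 0, 0.05, 0 and 0 RPM in the LLC pools and at 364.3, 381.15, 463.75 and 421.1 RPM in the B16 pools (log2 fold change −9.63, SE 0.10, limma adjusted p = 1.29e-10).

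**Figure D1:**
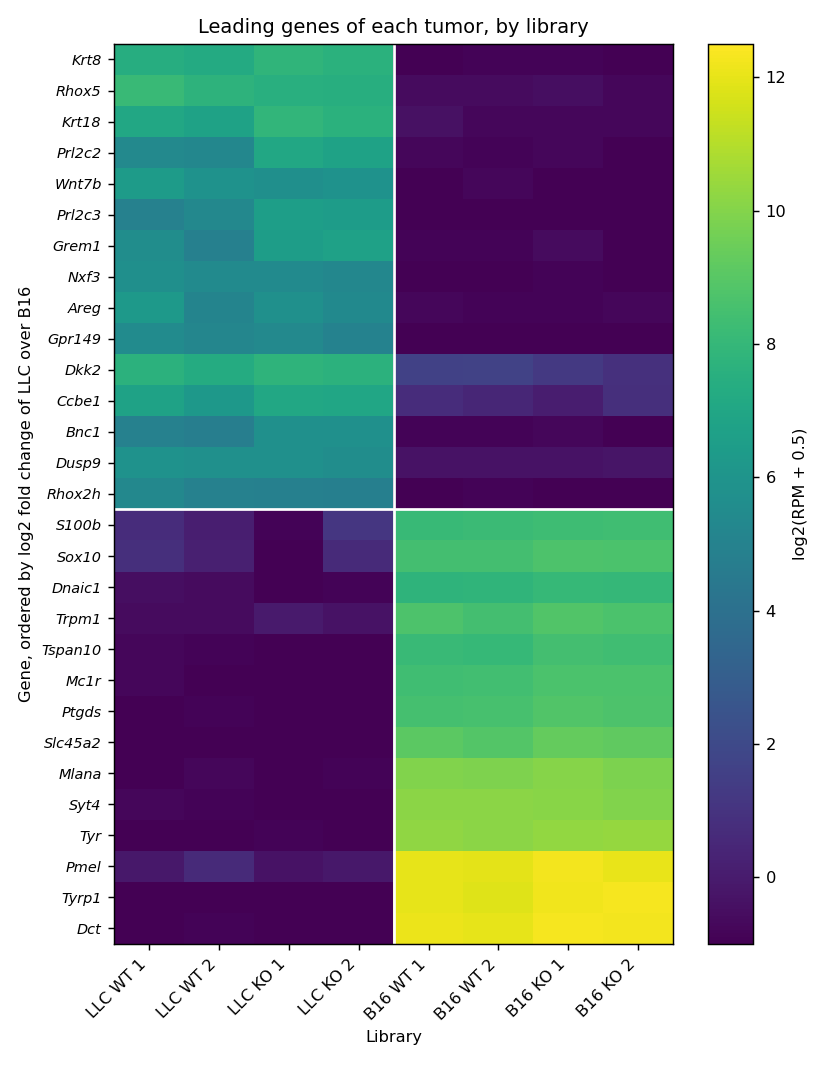
Level of the 15 genes with the largest difference toward LLC and of 14 of the 15 with the largest difference toward B16 (vertical) in each of the 8 libraries (horizontal), as log2(RPM + 0.5) in color. *Grem1*, *Prl2c2*, *Sox10* and *S100b* vary in color within LLC, but no gene has a library of 1 tumor at the level of the other.

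The 15 genes that led in LLC were of several kinds. *Krt8* was at 167.2, 152.45, 227.15 and 197.15 RPM in the LLC pools and at 0, 0.05, 0.05 and 0 RPM in the B16 pools (chr15:101996698-102004482, minus strand; log2 fold change 8.46, SE 0.13, limma adjusted p = 8.84e-10). Its partner *Krt18* was at 137.4, 110.05, 232.15 and 198.55 RPM in LLC and at 0.25, 0.1, 0.1 and 0.1 RPM in B16 (log2 fold change 8.01, SE 0.21, limma adjusted p = 1.56e-08). Together they form the filaments of simple epithelia. Of the 5 tested keratins of simple epithelia, 4 were higher in LLC. *Krt19* was higher in LLC (log2 fold change 2.56, SE 0.31, limma adjusted p = 9.75e-05) and so was *Krt80* (log2 fold change 1.09, SE 0.18, limma adjusted p = 5.74e-04). *Krt7* was the exception, at 0.3, 0.25, 0.05 and 0.25 RPM in LLC and at 10.95, 9.1, 9.9 and 7.25 RPM in B16 (log2 fold change −3.78, SE 0.16, limma adjusted p = 2.29e-07).

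Other epithelial genes did not share 1 direction. Of the 21 genes of epithelial junctions, 9 were high enough to be tested. Of these, 2 were higher and 5 lower in LLC, beside 36.7% and 34.1% of all tested genes. Most of them were near the limit of the test, and the median of −1.0 was 2.39 over the 2 genes left with a filter of 5 RPM. *Cdh1*, which makes E-cadherin, was at 1.4, 0.9, 0.6 and 0.7 RPM in LLC and at 3, 3.05, 2.4 and 1.55 RPM in B16 (log2 fold change −1.10, SE 0.17, limma adjusted p = 3.69e-04). *Epcam* did not exceed 0.25 RPM in any of the 8 libraries and was not tested. *Dsp*, a desmosome component, was lower in LLC (log2 fold change −2.16, SE 0.16, limma adjusted p = 6.09e-06), while *Ocln*, a tight junction protein, was at 4.4, 4.15, 10.05 and 8.3 RPM in LLC and at 0.3, 0.2, 0.1 and 0.1 RPM in B16 (log2 fold change 3.34, SE 0.26, limma adjusted p = 7.59e-06). *Pkp3*, another desmosome component, was at 7.75, 6.1, 11.5 and 11.35 RPM in LLC and at 1.85, 3.45, 3.55 and 3.2 RPM in B16 (log2 fold change 1.45, SE 0.18, limma adjusted p = 1.35e-04). Of 15 markers of lung epithelium, 4 were tested and 2 called, both higher in LLC. The surfactant gene *Sftpc* was read in 1 library, at 0.1 RPM, the lung lineage factor *Nkx2-1* was listed at 0 in all 8, and the club cell gene *Scgb1a1* did not exceed 0.2 RPM. The label of a lung carcinoma was thus not met by the defining markers of lung epithelium in these libraries. *Foxa2*, a factor of the endoderm, was at 3.45, 2.15, 3.2 and 2.25 RPM in LLC and was listed at 0 in B16 (log2 fold change 2.68, SE 0.17, limma adjusted p = 2.33e-06). Of 11 keratinocyte genes, 3 were high enough to be tested, and these 3 were higher in LLC, against 36.7% of all tested genes. Among them was *Sbsn*, at 29.65, 89.25, 23.2 and 28.3 RPM in LLC and from 3.1 to 6.1 RPM in B16. The skin markers that could be tested thus moved with the tumor, too. Their part in the other differences was not tested.

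Genes of the placenta and of the X-linked homeobox cluster made a second group among the leaders. Of the trophoblast list, 8 of 24 were tested, and 7 were higher and none lower in LLC (median 2.24). Of all tested genes, 36.7% were higher and 34.1% lower. *Rhox5*, a homeobox gene of the reproductive tract and the early embryo, was at 279.6, 208.5, 185.65 and 174.75 RPM in the LLC pools and at 0.15, 0.15, 0.2 and 0.1 RPM in the B16 pools (chrX:37804842-37808876, plus strand; log2 fold change 8.33, SE 0.14, limma adjusted p = 1.64e-09). *Prl2c2* was at 40.1, 37.9, 133.75 and 108 RPM in LLC and at 0.1, 0.05, 0.1 and 0 RPM in B16 (log2 fold change 6.94, SE 0.32, limma adjusted p = 3.09e-07). *Prl2c3* was at 29.85, 39.6, 93.85 and 87.35 RPM in LLC and was listed at 0 in B16 (log2 fold change 6.82, SE 0.27, limma adjusted p = 1.49e-07). Both encode proliferins, hormones of the prolactin family, and as near-identical copies they share reads, so that the split between them is uncertain. Their level in the KO hosts was above that in the WT hosts in both LLC pools of each. Among the fetal and imprinted growth genes, 8 of 14 were higher and 2 lower, beside the same shares of all tested genes. *Igf2bp2*, a binding protein of fetal mRNAs, was at 160.35, 123.5, 223.3 and 215.2 RPM in the LLC pools and at 5.6, 6.15, 3.8 and 3.75 RPM in the B16 pools (log2 fold change 5.08, SE 0.23, limma adjusted p = 3.03e-07). *Plagl1*, an imprinted zinc finger gene that went toward B16, was at 10.95, 23.35, 4.95 and 5.1 RPM in the LLC pools and at 298.85, 308.45, 296.55 and 330.5 RPM in the B16 pools (log2 fold change −5.01, SE 0.34, limma adjusted p = 3.13e-06). *H19* was called (log2 fold change 4.89, SE 1.02, limma adjusted p = 0.00237), but its B16 WT 1 library, at 27.85 RPM, came close to the 30.1 RPM of LLC WT 1, and the call was lost in some settings. Of 20 genes of the germline and of pluripotency, *Xlr3a* alone was tested, and it was lower in LLC (log2 fold change −4.41, SE 0.16, limma adjusted p = 8.32e-08).

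Further leaders were signaling genes. *Wnt7b*, a WNT ligand, was at 84.5, 59.15, 51.9 and 57.8 RPM in the LLC pools and at 0, 0.1, 0 and 0 RPM in the B16 pools (log2 fold change 6.91, SE 0.15, limma adjusted p = 6.37e-09). *Dkk2*, a secreted modulator of WNT receptors, was at 201.55, 156.65, 219.6 and 204.4 RPM in the LLC pools and at 2.55, 2.7, 1.85 and 1.3 RPM in the B16 pools (log2 fold change 6.26, SE 0.19, limma adjusted p = 3.75e-08). *Grem1*, a secreted antagonist of BMP, was at 49.1, 28.95, 89.95 and 103.85 RPM in the LLC pools and at 0.05, 0.05, 0.15 and 0 RPM in the B16 pools (log2 fold change 6.77, SE 0.29, limma adjusted p = 2.13e-07). The WNT ligand, the WNT modulator and the BMP antagonist thus all separated the 4 LLC from the 4 B16 libraries. *Dusp9*, a phosphatase of MAP kinases, was at 57.8, 53.8, 53.55 and 48.2 RPM in LLC and at 0.3, 0.3, 0.3 and 0.35 RPM in B16 (log2 fold change 6.05, SE 0.11, limma adjusted p = 2.39e-09).

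The mesenchymal state list was higher in LLC for 12 of 14 tested genes and lower for 1 (median 2.53). *Snai1* was at 33.4, 25.15, 41 and 41.3 RPM in the LLC pools and at 1.75, 2.45, 1.05 and 1.65 RPM in the B16 pools (log2 fold change 4.01, SE 0.23, limma adjusted p = 1.22e-06), a ratio of the means of 20.4. *Twist1* was at 45.2, 49.85, 57.55 and 52.85 RPM in the LLC pools and at 3.35, 4.05, 2.7 and 3.85 RPM in the B16 pools (log2 fold change 3.71, SE 0.14, limma adjusted p = 1.13e-07), a ratio of 14.7. *Zeb1* was at 84.55, 88.45, 104.85 and 97.3 RPM in LLC and at 10.05, 10.25, 6.3 and 8.2 RPM in B16 (log2 fold change 3.38, SE 0.15, limma adjusted p = 2.85e-07), whereas its relative *Zeb2* overlapped between the tumors and was not called (log2 fold change −0.24, SE 0.13, limma adjusted p = 0.122). SNAI1, TWIST1, ZEB1 and ZEB2 repress E-cadherin. *Fn1*, which makes fibronectin, was at 2927.5, 4276.6, 6199.5 and 5591.4 RPM in the LLC pools and at 322.95, 437.35, 336.35 and 436.6 RPM in the B16 pools (log2 fold change 3.59, SE 0.20, limma adjusted p = 9.26e-07). *Vim*, the intermediate filament of mesenchymal cells and also of melanocytes, was high in both tumors, at 3940.6, 3994.6, 7244.6 and 6847.8 RPM in LLC and at 3312.9, 3519.2, 4335.1 and 4002.9 RPM in B16, and its libraries overlapped (log2 fold change 0.49, SE 0.14, limma adjusted p = 0.0121). *Cdh2*, which makes N-cadherin, was lower in LLC (log2 fold change −2.09, SE 0.11, limma adjusted p = 6.77e-07). Fibroblasts of the host also express most of this list, and the fibroblast list was higher in LLC as well, for 13 of 14 genes. Its part in these differences was not tested.

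The *Hox* genes, which hold a memory of position along the body axis, split by cluster. All 8 tested *Hoxb* genes and all 6 tested *Hoxc* genes were higher in LLC, with medians of 1.5 and 1.47. In the *Hoxd* cluster 3 of 5 were higher and 1 was lower. *Hoxd9* was at 20.7, 17.65, 23.05 and 21.9 RPM in the LLC pools and at 0.9, 0.8, 0.2 and 0.2 RPM in the B16 pools (log2 fold change 4.45, SE 0.23, limma adjusted p = 6.73e-07). *Hoxd8*, beside it, was at 44.7, 36.25, 48.55 and 46.25 RPM in LLC and at 4, 3.55, 2.15 and 1.55 RPM in B16 (log2 fold change 3.81, SE 0.23, limma adjusted p = 1.43e-06). At the far end of the same cluster, *Hoxd13* was listed at 0 in LLC and was at 3.45, 3.35, 3.55 and 1.85 RPM in B16 (log2 fold change −2.79, SE 0.19, limma adjusted p = 3.24e-06). The *Hoxa* cluster was mixed, with 4 of 10 higher and 5 lower (median −0.09, and 0.34 in KO hosts alone), beside 36.7% and 34.1% of all tested genes. *Hoxa10* was at 3.8, 5.2, 4.35 and 4 RPM in the LLC pools and at 32.5, 37.25, 29.85 and 27.4 RPM in the B16 pools (log2 fold change −2.74, SE 0.12, limma adjusted p = 2.89e-07), and *Hoxa11* was lower in LLC as well (log2 fold change −3.19, SE 0.16, limma adjusted p = 5.39e-07), while *Hoxa7* was higher (log2 fold change 1.07, SE 0.12, limma adjusted p = 8.00e-05).

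Growth signaling genes were called in both directions. Of 23 tested genes of RAS, ERK feedback and EGF ligands, 11 were higher and 9 lower in LLC (median 0.23, and −0.13 in WT hosts alone), shares close to those of all tested genes. The AP-1 subunit *Fosl1* (chr19:5447547-5455946, plus strand), a known target of ERK signaling, was at 122.3, 88.85, 146.85 and 143.2 RPM in the LLC pools and at 2.45, 3.8, 3.05 and 2.9 RPM in the B16 pools (log2 fold change 5.13, SE 0.17, limma adjusted p = 5.56e-08), a ratio of the means of 41.1. *Areg* was at 75.5, 34.15, 54 and 41.5 RPM in the LLC pools and at 0.1, 0.05, 0.05 and 0.1 RPM in the B16 pools (log2 fold change 6.43, SE 0.23, limma adjusted p = 9.10e-08). *Ereg* was at 41.45, 19.4, 49.7 and 38.75 RPM in the LLC pools and at 0.35, 0.4, 0.2 and 0.2 RPM in the B16 pools (log2 fold change 5.52, SE 0.27, limma adjusted p = 5.01e-07). AREG and EREG are ligands of the EGF receptor. Toward B16 stood *Met*, the receptor of hepatocyte growth factor and a known target of MITF, which was at 110.55, 83.5, 105.7 and 99.25 RPM in the LLC pools and at 902.45, 737.75, 807.3 and 869.15 RPM in the B16 pools (log2 fold change −3.05, SE 0.10, limma adjusted p = 7.18e-08), 8.31 times the LLC mean. *Phlda1* was also lower in LLC (log2 fold change −2.74, SE 0.19, limma adjusted p = 3.43e-06). The AP-1 site TGANTCA, to which FOS and JUN proteins bind, was in 9.67% of the promoters of genes at least 4-fold higher in LLC and in 6.05% of those of genes at least 4-fold lower, against 5.54% for all tested genes and 7.81% for all promoters.

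In the list of the *Cdkn2* locus and p53 targets, 9 of 17 tested genes were higher and 5 lower in LLC, beside 36.7% and 34.1% of all tested genes. The tumor suppressor *Cdkn2a* did not exceed 0.5 RPM in any library of either tumor and was not tested. Its neighbor *Mtap*, which salvages methionine, was present in all libraries, at 120.3, 98.2, 123.25 and 114.5 RPM in LLC and at 224.55, 218.7, 235.45 and 221.85 RPM in B16 (log2 fold change −0.98, SE 0.078, limma adjusted p = 7.68e-06). *Cdkn1a*, a p53 target that encodes the cell cycle inhibitor p21, was lower in LLC (log2 fold change −1.02, SE 0.12, limma adjusted p = 1.02e-04), and *Eda2r*, another p53 target, was higher (log2 fold change 2.87, SE 0.21, limma adjusted p = 5.27e-06).

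The lists of glycolysis, oxidative phosphorylation and sterol synthesis all went toward B16. All 15 glycolysis genes were lower in LLC, against 34.1% of all tested genes, with a median log2 fold change of −1.41. *Aldoa*, an aldolase of the middle of the pathway, was at 834.15, 855, 1130.5 and 1109.3 RPM in the LLC pools and at 4125.9, 3913.6, 4921.6 and 4666.6 RPM in the B16 pools (chr7:126795234-126800751, minus strand; log2 fold change −2.17, SE 0.085, limma adjusted p = 1.43e-07), 4.49 times the LLC mean. *Tpi1*, the isomerase that follows, was at 822.1, 858.35, 1445.8 and 1398.6 RPM in the LLC pools and at 4610.4, 4636.1, 5730.6 and 5726.4 RPM in the B16 pools (log2 fold change −2.23, SE 0.11, limma adjusted p = 5.52e-07). *Ldhb*, a subunit of lactate dehydrogenase, was at 3.65, 5.2, 2.55 and 3.15 RPM in the LLC pools and at 124.95, 98.7, 117.25 and 116.7 RPM in the B16 pools (log2 fold change −4.83, SE 0.17, limma adjusted p = 7.74e-08), 31.4 times the LLC mean. *Hk2*, which traps glucose in the cell, was lower in LLC as well (log2 fold change −1.91, SE 0.15, limma adjusted p = 7.75e-06). In none of these 4 genes did a library of LLC reach the level of a library of B16. Of the 15, 4 lay on chromosome 6, whose genes as a whole were lower in LLC, and the other 11 were all lower too, with a median of −1.34.

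The same direction was seen in the mitochondrion, with 17 of 18 genes of oxidative phosphorylation lower in LLC and none higher (median −0.84). *Sdhb*, a subunit of complex II, was at 97.95, 102.85, 72.85 and 70.35 RPM in the LLC pools and at 327.6, 298.8, 359.1 and 332.1 RPM in the B16 pools (log2 fold change −1.95, SE 0.12, limma adjusted p = 2.18e-06). *Ndufa4* (log2 fold change −1.73, SE 0.083, limma adjusted p = 4.10e-07) and *Cox7a2* (log2 fold change −1.65, SE 0.065, limma adjusted p = 1.45e-07), of the respiratory chain, were both lower. *Ppargc1a*, a coactivator that drives mitochondrial genes and in melanoma is a known target of MITF, was at 0.05, 0.05, 0.15 and 0.15 RPM in the LLC pools and at 30.9, 22.25, 27.25 and 33.05 RPM in the B16 pools (log2 fold change −5.58, SE 0.14, limma adjusted p = 1.42e-08). Sterol and fatty acid synthesis followed, with 15 of 17 lower and none higher (median −1.0). *Dhcr7*, of the last step of cholesterol synthesis, was at 18.65, 21.65, 10.45 and 9.65 RPM in LLC and at 87.7, 77.2, 104.65 and 84.8 RPM in B16 (log2 fold change −2.59, SE 0.22, limma adjusted p = 1.24e-05).

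Proliferation genes went the same way, as 19 of 21 were lower and 0 higher in LLC (median −0.84). *Mcm2*, a subunit of the replicative helicase, was at 105.45, 91.85, 64 and 61.45 RPM in the LLC pools and at 328, 298.2, 307.3 and 259.45 RPM in the B16 pools (log2 fold change −1.91, SE 0.12, limma adjusted p = 1.71e-06). *Ccnd2*, a D-type cyclin, was at 171.05, 145.7, 126.2 and 123 RPM in the LLC pools and at 896.95, 935.05, 910.65 and 1021.5 RPM in the B16 pools (log2 fold change −2.74, SE 0.10, limma adjusted p = 1.15e-07), 6.65 times the LLC mean. *Ccne1* (log2 fold change −1.70, SE 0.16, limma adjusted p = 2.22e-05) and *Foxm1* (log2 fold change −1.17, SE 0.16, limma adjusted p = 2.34e-04), of the entry into S phase and into mitosis, were lower as well. The number of lower genes was 17 in WT hosts alone and 20 in KO hosts alone, where 30.0% and 36.2% of all tested genes were lower, and it was 12 without the LLC KO libraries and B16 WT 1, where 24.3% of all tested genes were lower. Of the amino acid stress genes, 6 of 12 were lower and 3 higher, beside 34.1% and 36.7% of all tested genes over both hosts. The list was led by *Ddit3* (log2 fold change −2.14, SE 0.16, limma adjusted p = 5.13e-06), the transcription factor CHOP.

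The difference in the hypoxia response was not the same in the libraries of WT and of KO hosts. Over both hosts 9 of 17 genes were lower in LLC and 3 higher (median −0.58). In WT hosts alone 11 were lower and 3 higher (median −1.14), beside 30.0% of all tested genes lower and 32.9% higher there. In KO hosts alone 8 were lower and 8 higher (median −0.017), beside 36.2% of all tested genes lower and 36.9% higher there. For 13 of the 17, the difference between tumors itself differed between hosts, against 15.2% of all tested genes. *Car9*, a carbonic anhydrase that was far lower in LLC in each host, was at 5.05, 4.9, 7.9 and 8.55 RPM in the LLC pools and at 200.9, 208, 223.3 and 258.15 RPM in the B16 pools (log2 fold change −5.01, SE 0.11, limma adjusted p = 5.46e-09). *Ero1l*, an oxidase of protein folding, was at 194.6, 144.75, 1167.1 and 1455.1 RPM in the LLC pools and at 1896.7, 2106.2, 2129.3 and 2796.8 RPM in the B16 pools (log2 fold change −2.24, SE 0.48, limma adjusted p = 0.00281), and its difference was smaller in KO hosts (difference of the log2 fold changes, KO minus WT hosts, 2.67; limma adjusted p = 0.00302). *Bnip3*, of mitophagy, was at 154, 123.4, 460.6 and 472.4 RPM in the LLC pools and at 1114.5, 1194.3, 1232.1 and 1319.2 RPM in the B16 pools (log2 fold change −2.25, SE 0.29, limma adjusted p = 1.43e-04; difference between hosts 1.61). *Egln3*, a prolyl hydroxylase that marks HIF for decay and that was higher in LLC, was at 149.8, 157, 485.45 and 487.85 RPM in the LLC pools and at 20, 26.8, 27.9 and 32.1 RPM in the B16 pools (log2 fold change 3.35, SE 0.24, limma adjusted p = 4.64e-06; difference between hosts 1.30). In *Ero1l*, *Bnip3* and *Egln3* the LLC libraries of KO hosts stood above those of WT hosts, while the B16 libraries changed little. These LLC KO libraries are also those that alone hold Y-linked reads, so that in LLC the genotype of the host and what the Y-linked reads mark cannot be told apart. With 1 library left out at a time, the difference between hosts was called for 11 to 15 of the 17 hypoxia genes.

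**Figure D2:**
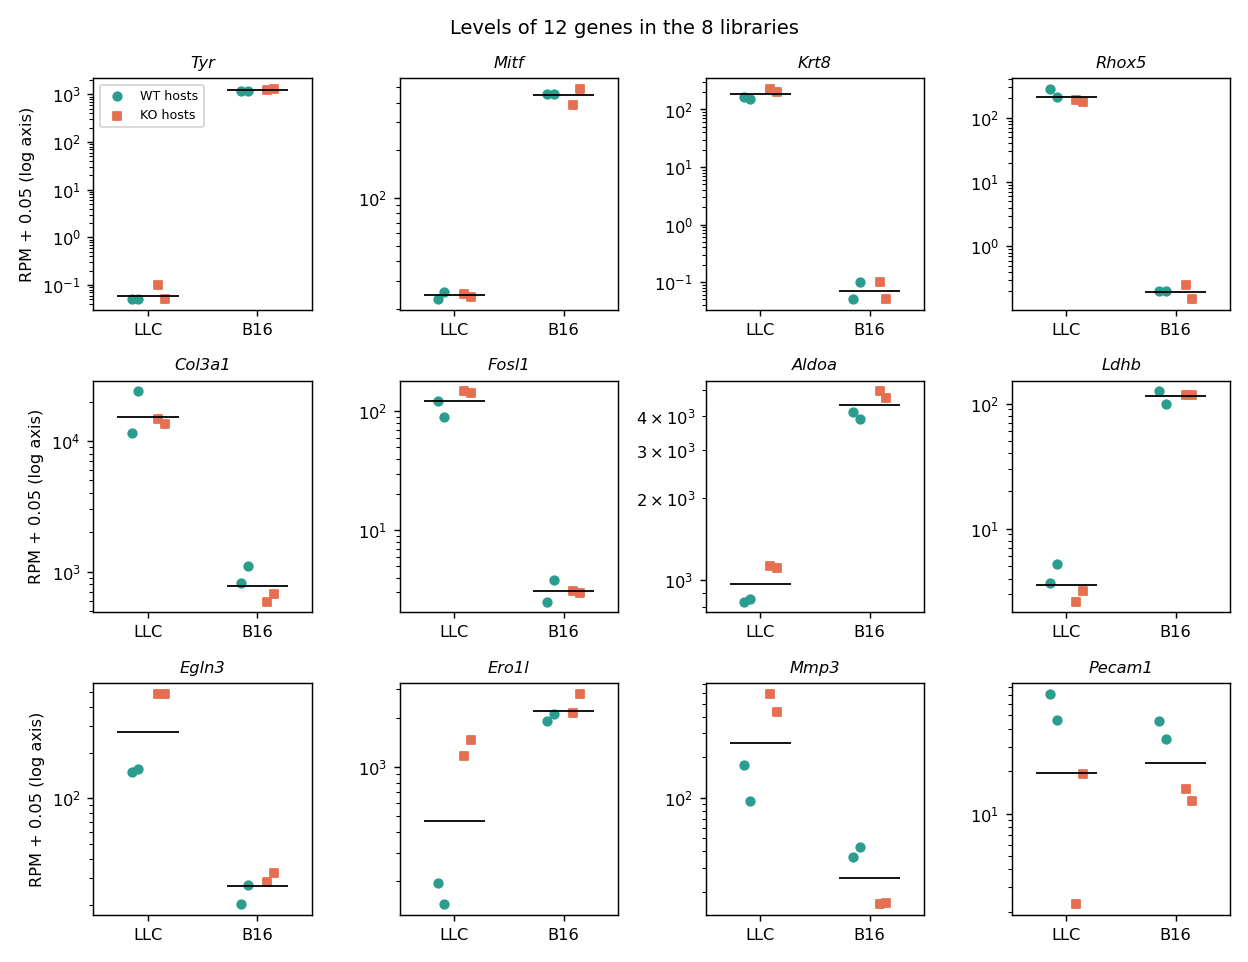
RPM + 0.05 on a log axis for 12 named genes in the 8 libraries, by tumor and host, where each point is a library and each line the geometric mean of the 4 libraries of a tumor. *Tyr*, *Mitf*, *Aldoa* and *Ldhb* are higher in all B16 libraries, *Krt8*, *Rhox5*, *Col3a1*, *Fosl1*, *Egln3* and *Mmp3* in all LLC libraries, and *Pecam1* overlaps between the tumors.

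Genes of the extracellular matrix were higher in LLC. Of 14 fibroblast and collagen genes 13 were higher, 11 of them at least 4-fold (against 6.3% of all tested genes), and 1 was lower (median 2.46). Their sum was 22355 to 48932 RPM in LLC and 1913.1 to 3142.4 RPM in B16. *Col3a1* (chr1:45311538-45349706, plus strand), a fibrillar collagen, was at 11587, 23963, 14772 and 13397 RPM in the LLC pools and at 820.85, 1100.2, 586.4 and 669.15 RPM in the B16 pools (log2 fold change 4.31, SE 0.23, limma adjusted p = 7.05e-07), a ratio of the means of 20.1. *Col1a1*, the main chain of type I collagen, was at 5771.5, 9699.6, 2167.8 and 2414.7 RPM in the LLC pools and at 340.95, 414.8, 263.3 and 251.6 RPM in the B16 pools (log2 fold change 3.73, SE 0.25, limma adjusted p = 3.18e-06). *Dpt*, a matrix protein of the dermis, was higher in LLC (log2 fold change 2.96, SE 0.34, limma adjusted p = 7.32e-05), and so was *Pdgfra*, a receptor of fibroblasts, at 126.95, 183.5, 156.05 and 140.8 RPM in LLC and 27.95, 38.05, 20.6 and 36.7 RPM in B16 (log2 fold change 2.31, SE 0.20, limma adjusted p = 1.20e-05). Whether these transcripts came from the grafted cells or from fibroblasts of the host cannot be told apart. Among the basement membrane and integrin genes 14 of 21 were higher and 4 lower, beside 36.7% and 34.1% of all tested genes. *Lamb1*, a laminin chain, was at 529.2, 570.1, 546.1 and 492.75 RPM in the LLC pools and at 46.75, 42, 28.1 and 30.1 RPM in the B16 pools (log2 fold change 3.88, SE 0.11, limma adjusted p = 3.17e-08). *Nid1*, which links laminin to collagen IV, was at 1008.6, 1408.8, 2190.7 and 2122.8 RPM in the LLC pools and at 114.45, 131.55, 69.2 and 113.55 RPM in the B16 pools (log2 fold change 3.94, SE 0.28, limma adjusted p = 4.00e-06). *Itga3*, a laminin receptor subunit, was at 62.35, 46.2, 31.25 and 32.65 RPM in LLC and at 3.45, 1.75, 2.15 and 0.7 RPM in B16 (log2 fold change 4.18, SE 0.27, limma adjusted p = 2.23e-06).

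Matrix proteases and their inhibitors followed, with 14 of 17 higher and 1 lower (median 1.74). *Mmp3* was at 175.05, 94.5, 589.2 and 433.8 RPM in the LLC pools and at 36.4, 43.1, 16.15 and 16.55 RPM in the B16 pools (log2 fold change 3.30, SE 0.59, limma adjusted p = 9.76e-04), with a larger difference in KO than in WT hosts (difference 3.22; limma adjusted p = 0.00503). *Mmp2* was higher in LLC (log2 fold change 2.80, SE 0.28, limma adjusted p = 3.16e-05), as was *Plat*, an activator of plasminogen (log2 fold change 2.81, SE 0.15, limma adjusted p = 7.39e-07). Of the angiogenic and angiostatic factors, 7 of 16 were higher and 3 lower, beside 36.7% and 34.1% of all tested genes. *Ptn*, the heparin-binding factor pleiotrophin, was at 19.4, 22.7, 248.2 and 182.85 RPM in the LLC pools and at 0.9, 1.25, 0.65 and 0.7 RPM in the B16 pools (log2 fold change 5.64, SE 0.66, limma adjusted p = 7.84e-05; difference between hosts 3.73). *Thbs2*, an antiangiogenic thrombospondin, was at 1024.3, 1695.8, 855.65 and 755.2 RPM in the LLC pools and at 68.7, 113.15, 74.2 and 211.75 RPM in the B16 pools (log2 fold change 3.28, SE 0.38, limma adjusted p = 7.88e-05). *Fgf1* was lower in LLC (log2 fold change −2.85, SE 0.16, limma adjusted p = 1.04e-06). All 3 genes separated the tumors without overlap.

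The vessels gave no clear difference. Of 20 genes of blood endothelium, 3 were higher and 1 lower, and 16 were not called. Of all tested genes, 36.7% were higher and 34.1% lower over both hosts. The shares were 32.9% and 30.0% in WT hosts alone, and 36.9% and 36.2% in KO hosts alone. *Pecam1*, a defining marker, was at 71.2, 46.2, 2.2 and 19.05 RPM in LLC and at 45.8, 33.9, 14.8 and 12.2 RPM in B16 (log2 fold change −0.20, SE 0.58, limma adjusted p = 0.767), and *Cdh5* was likewise not called (log2 fold change 0.14, SE 0.62, limma adjusted p = 0.85). The median of the list, −0.18, was 0.44 without LLC KO 1 and 0.054 without B16 KO 1. It was 0.56 in WT hosts with 8 of 20 higher, −0.94 in KO hosts with 3 of 17 higher, and 0.78 without the LLC KO libraries and B16 WT 1, with 7 of 20 higher, where 26.7% of all tested genes were higher. *Cd34* was higher in LLC (log2 fold change 2.02, SE 0.24, limma adjusted p = 8.76e-05) but is also expressed by fibroblasts. Of 11 mural cell genes 4 were higher, a share close to the 36.7% of all tested genes, and 2 lower. Their median of 0.45 was 1.15 in WT hosts alone, with 6 of 11 higher, 1.1 without the LLC KO libraries and B16 WT 1, again with 6 of 11 higher, and −0.54 without LLC KO 2. *Acta2*, which ranged from 5.25 to 73.5 RPM within LLC, was not called (log2 fold change 0.52, SE 0.40, limma adjusted p = 0.268), but was called without LLC KO 1 (log2 fold change 1.01, limma adjusted p = 0.000212). Of 10 adipocyte genes 1 was called over both hosts, and lower in LLC, while in WT hosts alone 7 of 8 were lower (median −2.12). Of 5 tested erythroid genes none was called over both hosts, all 5 were lower in WT hosts (median −1.42), and none was called in KO hosts (median 1.21). Without the LLC KO libraries and B16 WT 1, the median was −1.735 over 8 adipocyte genes and −1.611 over 5 erythroid genes. That fit held 1 B16 library of WT hosts. None of the 3 tested muscle genes was called.

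Myeloid genes were higher in LLC. Of 15 macrophage genes 13 were higher and 1 was lower (median 1.5), and 10 were higher and 1 lower without the LLC KO libraries and B16 WT 1. *Adgre1*, the F4/80 antigen, was at 183.2, 262.25, 177.5 and 245.4 RPM in the LLC pools and at 67.75, 92.3, 48.15 and 56.25 RPM in the B16 pools (log2 fold change 1.73, SE 0.18, limma adjusted p = 4.09e-05). *Csf1r*, the receptor of the growth factor CSF1, was at 329.15, 531.8, 196.75 and 245.15 RPM in the LLC pools and at 97.65, 107.45, 81.2 and 116.2 RPM in the B16 pools (log2 fold change 1.60, SE 0.22, limma adjusted p = 2.35e-04). The exception was *Mertk*, a receptor for dying cells that was at 27.9, 35.8, 26 and 28.1 RPM in LLC and at 144.4, 125, 141.9 and 122.4 RPM in B16 (log2 fold change −2.17, SE 0.10, limma adjusted p = 4.30e-07). *Il34*, the other ligand of the CSF1 receptor, was at 24.75, 27.4, 25.5 and 27.05 RPM in LLC and at 2, 1.75, 1.55 and 1.6 RPM in B16 (log2 fold change 3.59, SE 0.11, limma adjusted p = 3.90e-08). Of 11 neutrophil genes 7 were tested and 6 were higher. *S100a8* was at 32.4, 17.35, 36.5 and 27.75 RPM in the LLC pools and at 3.8, 3.45, 7.8 and 3.4 RPM in the B16 pools (log2 fold change 2.53, SE 0.27, limma adjusted p = 4.20e-05). *Csf3r*, the receptor of G-CSF, was higher as well (log2 fold change 2.24, SE 0.13, limma adjusted p = 1.02e-06). All 7 mast cell genes were higher, led by *Cpa3*, which was at 15.45, 6.8, 29.4 and 71.85 RPM in the LLC pools and at 2.9, 2.05, 0.7 and 1.05 RPM in the B16 pools (log2 fold change 3.48, SE 0.64, limma adjusted p = 0.00122), and 6 of the 7 had a larger difference in KO hosts, a count that was 0 without LLC KO 2, 1 without LLC WT 2, and 0 without any 1 of the B16 libraries. Without the LLC KO libraries and B16 WT 1, 3 of 5 tested mast cell genes were higher.

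The counts of lymphoid and antigen presentation genes were not alike in WT and KO hosts. In the test of the difference between hosts itself, 15.2% of all tested genes were called. That difference was called for 4 of 6 T cell genes, 3 of 8 NK cell genes and 3 of 5 B and plasma cell genes. It was called for 4 of 11 MHC class I genes, 2 of 7 MHC class II genes and 0 of 21 interferon response genes. Over both hosts 36.7% of all tested genes were higher in LLC and 34.1% lower. Of 6 tested T cell genes 1 was lower over both hosts, of 8 NK cell genes 2 were lower, and of 5 B and plasma cell genes none was called. *Cd3e* did not exceed 0.65 RPM in any library. In KO hosts alone, where 36.2% of all tested genes were lower, all 8 NK cell genes, 4 of 5 B and plasma cell genes and 3 of 4 T cell genes were lower in LLC. In WT hosts alone, where 32.9% of all tested genes were higher and 30.0% lower, no NK cell gene was called, 1 of 4 B and plasma cell genes was higher and 2 of 6 T cell genes were higher. *Prf1*, the perforin of cytotoxic cells, was at 10.05, 6.2, 0.8 and 1.5 RPM in LLC and at 8.2, 12.2, 8.6 and 12.55 RPM in B16 (log2 fold change −1.54, SE 0.48, limma adjusted p = 0.018). The LLC libraries of KO hosts were thus lowest, LLC WT 1 lay within the range of B16, and LLC WT 2 lay below it. MHC class I genes were split, with 2 of 11 higher and 3 lower over both hosts, 4 higher and 1 lower in WT hosts, and none higher and 8 lower in KO hosts. Of 7 MHC class II genes 2 were lower over both hosts, none was called in WT hosts and 6 were lower in KO hosts. Of 21 interferon response genes 4 were higher and 5 lower over both hosts, 5 higher and 2 lower in WT hosts (median 0.13), and 1 higher and 9 lower in KO hosts (median −0.46). Dendritic cell genes were split as well, with 1 of 8 higher and 3 lower.

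**Figure D3:**
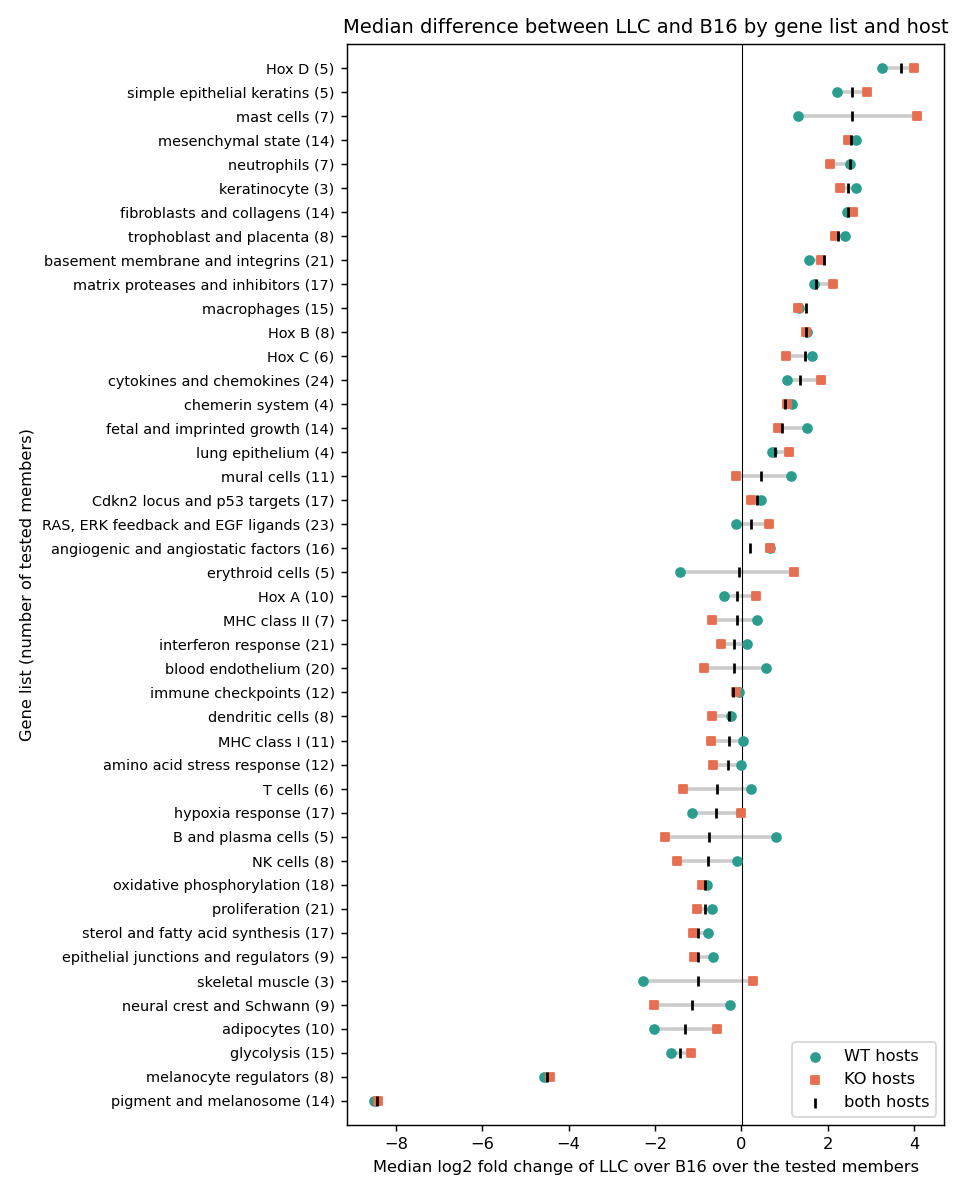
Median log2 fold change of LLC over B16 for each gene list with at least 3 tested members, in WT hosts (circles), in KO hosts (squares) and over both hosts (bars), with the median of all tested genes as a vertical line. The pigment list lies at −8.44, the glycolysis list at −1.41, and the mesenchymal and fibroblast lists at 2.53 and 2.46.

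Secreted signals were mostly higher in LLC, where 16 of 24 tested cytokines and chemokines were higher and none was lower (median 1.37). Without the LLC KO libraries and B16 WT 1, 7 of 23 were higher, a share close to the 26.7% of all tested genes. *Il33*, an alarmin of epithelia and fibroblasts, was at 243.9, 160.8, 514.35 and 436.15 RPM in the LLC pools and at 35.7, 34.8, 25.4 and 40.55 RPM in the B16 pools (log2 fold change 3.17, SE 0.29, limma adjusted p = 1.92e-05). *Cxcl1*, a chemoattractant of neutrophils, was at 56.95, 15.05, 102.9 and 82.5 RPM in the LLC pools and at 4.3, 11.9, 5.95 and 3.3 RPM in the B16 pools (log2 fold change 3.09, SE 0.58, limma adjusted p = 0.0014). *Lif* was higher (log2 fold change 2.18, SE 0.30, limma adjusted p = 2.29e-04), as was *Il11* (log2 fold change 2.82, SE 0.25, limma adjusted p = 1.45e-05). The chemerin system was higher in LLC for all 4 members. *Rarres2*, which makes chemerin, was at 102.25, 98.25, 52.25 and 53.15 RPM in LLC and at 22.35, 46.15, 19.6 and 21.65 RPM in B16 (log2 fold change 1.48, SE 0.20, limma adjusted p = 1.69e-04), and *Cmklr1*, its signaling receptor, was at 38.85, 56.2, 23.4 and 30.8 RPM and 16.45, 22.25, 12.65 and 21.95 RPM (log2 fold change 0.97, SE 0.23, limma adjusted p = 0.00446). The libraries did not overlap for either, but without the LLC KO libraries and B16 WT 1 1 of the 4 members was called. Of 12 checkpoint genes 4 were higher and 3 lower, beside 36.7% and 34.1% of all tested genes. *Cd276*, the B7-H3 ligand, was at 143.85, 157.65, 102.35 and 92.7 RPM in the LLC pools and at 19, 21, 17.9 and 16.9 RPM in the B16 pools (log2 fold change 2.67, SE 0.10, limma adjusted p = 1.42e-07). *Pdcd1lg2* was lower in LLC, with overlapping libraries (log2 fold change −1.02, SE 0.29, limma adjusted p = 0.0115).

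Of the genes that differed at least 4-fold over both hosts, 680 of the 927 and 569 of the 675 did so in each host, counts that follow in part from their choice by the average over hosts. The size differed between hosts for 2236 of all tested genes (15.2%), 1199 toward LLC and 1037 toward B16 in KO hosts, and for 217 of the 927 and 95 of the 675. The count of 2236 changed when 1 library was left out, which also leaves 1 library in its group. Over all genes the count was 318 without B16 WT 1, 329 without B16 WT 2, 362 without B16 KO 1, 951 without B16 KO 2, 348 without LLC KO 1 and 630 without LLC KO 2. It was 3616 without LLC WT 1 and 2389 without LLC WT 2. The Y-linked genes were read only in the 2 LLC KO libraries, so that their calls follow those libraries and not the tumor line.

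The differences were uneven along the genome. Chromosome 6 had a median log2 fold change of −0.59 over 801 tested genes, of which 58.9% were lower in LLC and 22.1% higher, with −0.55 in WT hosts and −0.63 in KO hosts. The 16 autosomes other than chromosomes 1, 6 and 19 had medians between −0.10 and 0.16. Chromosome 19 stood at 0.34 with 51.4% of its genes higher, and chromosome 1 at 0.25 with 46.8% higher. In windows of 10 Mb with at least 20 tested genes, all 14 windows of chromosome 6 had a negative median, from −0.86 to −0.27. Of the 10 windows at or below −0.5 among 221 on the autosomes, 9 were on chromosome 6. Of the 7 at or above 0.5, 4 were on chromosome 1. Chromosome 6 held 5.45% of the tested genes and 10.1% (68) of those at least 4-fold lower in LLC, among which were *Mitf*, *Met*, *Ldhb* and *Ccnd2*, but also 39 of those at least 4-fold higher, among them *Ptn*. Without the genes of chromosome 6, 13 of 13 pigment genes, 16 of 17 oxidative phosphorylation genes and 16 of 18 proliferation genes were lower in LLC, and no list median changed sign. The number of copies of these chromosomes in the grafted cells was not measured here.

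**Figure D4:**
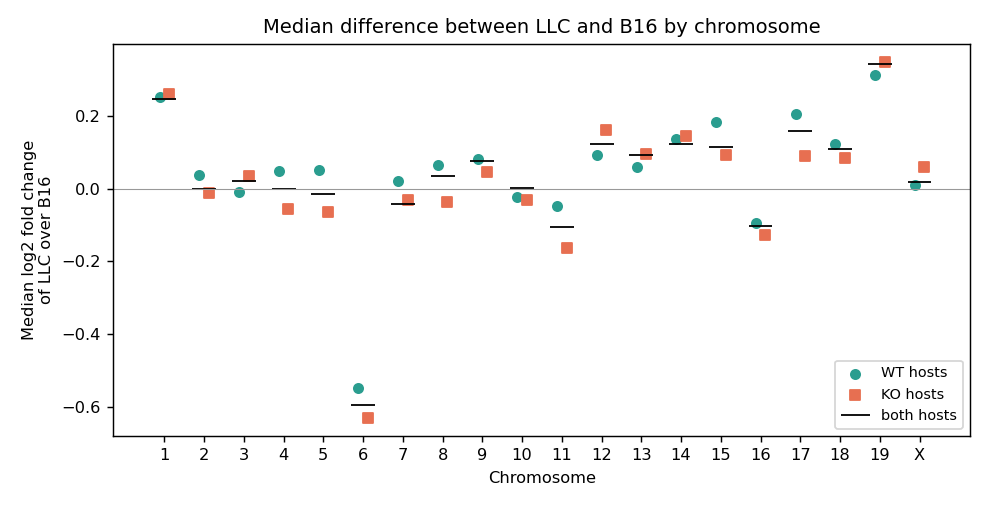
Median log2 fold change of LLC over B16 for the tested genes of each chromosome (1 to 19 and X), in WT hosts, in KO hosts and over both. Chromosome 6 stands at −0.59, below all others, and chromosomes 19 and 1 stand at 0.34 and 0.25, with WT and KO hosts close together.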

How the data were processed

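RNA was extracted from pools of LLC or B16 tumors and sequenced as paired reads of 100 bases from TruSeq libraries. The authors trimmed reads with Trimmomatic, aligned them with STAR to the mouse genome (GRCm38) and counted them per gene with HTSeq; versions and the use of strand were not given in the sources used here, so reads of overlapping or antisense genes cannot be told apart. The deposited values are counts that the authors scaled to 20 M reads per library and rounded to whole numbers, treated here as a score and not as raw counts, so that no count model was used. Those of the LLC WT libraries were rounded up. All 8 columns of values had a sample, and 0 did not.

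Values were divided by 20 (RPM) and analysed as log2(RPM + 0.5) with limma 3.58.1 in R 4.3.3, with a variance trend, the terms tumor and host, a filter of 1 RPM in 2 libraries and Benjamini-Hochberg adjustment over 14706 genes (two-sided; 5 residual and 3.39 prior degrees of freedom). A model of the 4 groups gave the difference within each host and the difference between hosts, and fits on the libraries of 1 host gave the counts by host. On simulated data for the comparison of the tumors, over 14706 genes of which a small part was changed, 89% of 2-fold and 98% of 4-fold changes were called. In the data themselves 70.8% of tested genes were called, so the cutoff set by the adjustment differs and these percentages need not hold there. Depth was estimated from the steps between the scaled values as 17.6 to 30.86 M reads. The depth bears on counting error only and not on the spread between pools.

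Named genes are the 15 largest called differences in each direction without overlap between the tumors (predicted genes left out), up to 5 called members with the largest difference in each list, members marked beforehand as key, the 5 of these with the strongest evidence of a difference between hosts, and Y-linked genes with *Xist* as a check. The gene lists and the members were chosen with earlier results of these data known, so counts over a list are descriptions. Gene positions were taken from GENCODE M21, which held 99.12% of the identifiers, and promoters from RefSeq (GRCm38.p6). Alternatives were other scalings (TMM, median of ratios), pseudocounts, filters, fits without the host term, by host, with a replicate block, with robust moderation, without chromosomes X and Y, and without each library. Leaving out the LLC KO libraries with B16 WT 1, and leaving out genes of chromosome 6, were added after seeing the data. A few genes that met these rules are not reported here.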

Additional observations from a re-analysis of the deposited data

Results flagged for a closer look

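For 53 of the named genes the difference between LLC and B16 tumors was not the same in WT and in KO hosts by the test of the difference itself (limma adjusted p from 0.000102 to 0.0475). The values below are the LLC to B16 difference on the log2 scale in KO hosts minus that in WT hosts. It was positive for 40 genes. Of the 53, 11 passed the threshold in every setting tried (*Bnip3*, *Ddx3y*, *Egln3*, *Eif2s3y*, *Eng*, *Ero1l*, *Kdm5d*, *Mmp3*, *Mmp9*, *Ptn* and *Uty*). None of the 53 changed direction in any setting, but most lost the call in some setting. A fit without a library also has fewer libraries in a group. A lost call therefore does not show that the difference came from the library left out.

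Among hypoxia genes and those of glycolysis the value was 2.67 for *Ero1l*, 1.61 for *Bnip3*, 1.3 for *Egln3*, 0.73 for *Hk2* and 0.68 for *Gpi1*. Among genes that led in LLC it was 0.96 for *Krt18*, 1.68 for *Prl2c2*, 1.38 for *Prl2c3*, 0.86 for *Dkk2* and 0.93 for *Bnc1*. Genes of epithelial and fetal lists gave 1.33 for *Ocln*, 0.83 for *Hopx*, 1.21 for *Igf2bp2*, 2.25 for *Peg3* and −1.62 for *Plagl1*. Regulators and receptors gave 1.17 for *Hoxd9*, 1.11 for *Hoxd8*, 0.69 for *Zeb1*, 0.65 for *Zeb2* and 1.48 for *Ednrb*.

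Matrix genes and proteases gave 3.22 for *Mmp3*, 2.04 for *Mmp10*, 1.57 for *Dpt*, 1.32 for *Nid1*, 0.8 for *Col4a1*, 0.52 for *Lamb1*, −1.16 for *Col1a1* and −1.78 for *Mmp9*. Secreted factors gave 3.73 for *Ptn*, 1.44 for *Lif*, 1.39 for *Il33* and 1.08 for *Angpt1*. The mast cell genes *Cpa3* (3.22), *Fcer1a* (3.19), *Tpsb2* (3.03), *Mcpt4* (2.91) and *Cma1* (2.79) were far higher in LLC KO 2 than in the other LLC libraries. Other leukocyte genes gave −2.43 for *Prf1*, −1.61 for *Flt3*, −1.28 for *Cd2*, −1.12 for *Tap1* and −1.1 for *Clec4d*. Endothelial genes gave 1.65 for *Flt1* and −0.93 for *Eng*. Metabolic and cell cycle genes gave −1.16 for *Dhcr7*, −0.63 for *Sdhb*, −0.84 for *Foxm1* and −0.76 for *Ccne1*.

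Y-linked reads came from the LLC KO libraries alone, which gave 6.06 for *Ddx3y*, 5.48 for *Eif2s3y*, 3.93 for *Uty* and 3.84 for *Kdm5d*. *Xist*, at 1.43, was at 632 and 710 RPM in those libraries, at 323 and 296 RPM in the LLC WT libraries and at 55.6 to 90.2 RPM in B16.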

How the results depend on the processing

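The number of genes at least 4-fold higher in LLC was 1402 with 0.05 RPM and 560 with 2 RPM added before the logarithm, in place of 927 with 0.5 RPM; the other counts of called genes stayed within 1.5 times under all settings. TMM scaling gave 5031 higher and 5446 lower, so that lower genes were then the larger part, and median of ratios scaling gave 5130 and 5344; no list median changed sign under either. Leaving out each library in turn gave 4942 to 5315 higher and 4637 to 4989 lower. The number of genes whose difference differed between hosts was 795 without a filter and 318 to 3616 with 1 library left out, and the calls that rest on it are the least firm. Of 214 called named genes, 182 passed the threshold in every setting and none changed direction. Of 32 lists with a median of at least 0.5 in size, 4 changed sign in some setting (B and plasma cells, T cells, epithelial junctions, skeletal muscle).

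The replicate numbers of the labels did not pair the libraries: deviations of same-numbered libraries correlated between −0.0301 and 0.308. With a replicate block 5328 genes were higher, 4907 lower, 927 and 675 at least 4-fold, and 2712 differed between hosts. Values under about 0.1 RPM rest on 3 reads or fewer, and genes in that range cannot be ordered.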

Other observations

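The genes below were chosen after their values were seen, from those at least 4-fold different between the tumors, and stand in no gene list of the report. They were picked singly, with no count over the other genes of the same kind. *Dnaic1*, a dynein intermediate chain of the axoneme, was at 223.2 to 262.2 RPM in B16 and at 0 to 0.2 RPM in LLC (log2 fold change −8.66, SE 0.13, limma adjusted p = 9.42e-10). *Dnaic2* was at 134.05 to 164.75 RPM in B16 and at 1 to 2.7 RPM in LLC. *Cfap54* (−6.51), *Dnah7b* (−5.77) and *Ccdc13* (−5.90) had the same direction without overlap between the tumors. *Car6*, a carbonic anhydrase, was at 381.85 to 469.8 RPM in B16 and 1.1 to 3.75 RPM in LLC, and *Car14*, another, at 87.05 to 118.1 RPM and 0.05 to 0.45 RPM. *Glrb*, a glycine receptor subunit, was at 252.15 to 285.75 RPM in B16 and 1.2 to 2.95 RPM in LLC, and the sodium channel *Scn8a* at 116.8 to 124.0 RPM and 1.25 to 2.05 RPM. Of transcription factors, *Alx1*, of craniofacial neural crest, lay at 45.75 to 47.2 RPM in B16 and was listed at 0 in all LLC libraries. *Aire*, known from the thymus, was at 52.9 to 59.35 RPM in B16 and at 0.5 to 0.95 RPM in LLC, and *Prdm16*, a regulator of brown fat, at 129.05 to 175.5 RPM and 1.05 to 1.85 RPM. The near-identical *Gsta1* and *Gsta2* were both higher in B16, and the split of reads between them is uncertain.

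Of single genes toward LLC, *Ntn1*, which makes the guidance factor netrin, was at 168.75 to 391.9 RPM in LLC and at 3.2 to 6.35 RPM in B16 (log2 fold change 5.63, SE 0.33, limma adjusted p = 1.20e-06). *Sema3a* was at 23.4 to 67.55 RPM and 0.55 to 1.15 RPM, and *Epha2*, an ephrin receptor, at 39.15 to 88.25 RPM and 0.95 to 2.45 RPM. *Ptges*, a prostaglandin E synthase, was at 257.4 to 411.15 RPM in LLC and at 5.35 to 8.8 RPM in B16, the reverse of the prostaglandin D synthase *Ptgds*. *Nos2*, the inducible nitric oxide synthase, was at 89.1 to 209.1 RPM in LLC and at 4.6 to 8.8 RPM in B16. *Col18a1*, the source of endostatin, was at 826.3 to 1021.2 RPM in LLC and at 9.35 to 30.05 RPM in B16, and *Spp1*, osteopontin, at 855.65 to 1705.75 RPM and 42.05 to 71.45 RPM. *Pthlh*, the parathyroid hormone-like factor of carcinomas, was at 10.35 to 14.85 RPM in LLC and at most 0.15 RPM in B16. *Bdnf* was at 11.95 to 42.6 RPM in LLC and at most 0.1 RPM in B16. The thrombin receptor *F2r* (5.53) and *Il18rap* (4.45) were higher in LLC as well. *Stra6*, a receptor of vitamin A transport, stood apart in its spread within LLC, at 2.75 and 3.5 RPM in WT hosts and at 55.15 and 45.45 RPM in KO hosts.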
